A study of Homo sapiens with 32 samples.

Results

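The 9 genes described here are among 19154 that carried an m6A peak in any list of the series. They encode the histone acetyltransferases EP300, CREBBP, KAT6A, KAT6B, KAT2A, KAT2B and KAT7 and the BET proteins BRD2 and BRD3. They were chosen by name, and a peak was given to a gene when it overlapped the gene body of RefSeq (GRCh38) by at least 1 bp on either strand. The study mapped the RNA modification N6-methyladenosine (m6A) by MeRIP-seq: an antibody against m6A enriches methylated RNA fragments, and stretches where they pile up are called as peaks. The RNA was chromatin-associated RNA of 4 established human cancer lines, the ovarian lines OVCAR8 and SKOV3 and the colorectal lines LOVO and RKO. Each line had a control group, labelled WT, and a group labelled as knockdown of METTL3 by a short hairpin RNA. The titles of the ovarian control libraries name a control hairpin. The colorectal titles say only that a library is a control, while the names of the colorectal control peak lists give a control hairpin. The 12 peak lists comprised 2 per group in OVCAR8 and SKOV3 and 1 per group, without a replicate, in LOVO and RKO. Nothing in the labels says that the 2 lists of a group came from separate cultures, so the p-values measure only the spread between lists, which may be technical.

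METTL3 is the catalytic subunit of the enzyme complex that places m6A on nascent RNA, mostly within a short consensus of which GGACT, in DNA letters, is a common form. Histone acetyltransferases add acetyl groups to lysines of histone tails, which is associated with open and active chromatin, and BET proteins bind such acetylated lysines through paired bromodomains and recruit the transcription machinery. EP300 and CREBBP are paralogous coactivators at enhancers and promoters, KAT6A and KAT6B (also called MOZ and MORF) and KAT7 (HBO1) belong to the MYST family, and KAT2A and KAT2B (GCN5 and PCAF) are catalytic subunits of the SAGA and ATAC coactivator complexes.

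The ovarian knockdown lists went against their labels. Of the peaks under the OVCAR8 knockdown label, 95.9% overlapped a peak of SKOV3 control and 69.3% one of OVCAR8 control. Under the SKOV3 knockdown label, 81.9% overlapped OVCAR8 control and 56.5% SKOV3 control. For the 9 genes alone, the lists labelled OVCAR8 knockdown had 100% of their peak regions in SKOV3 control and 85.2% in OVCAR8 control, while those labelled SKOV3 knockdown had 81.0% in SKOV3 control and 74.8% in OVCAR8 control (means of 4 pairs of lists each). The single pairs of lists ran from 76.3% to 85.7% and from 68.4% to 80% in the latter group and overlapped, so the genes studied here did not settle which line it came from. The ovarian tests by line and the lost and gained shares are given as labelled and also with the knockdown lists exchanged. The fit over the 4 lines was run as labelled only. The RKO knockdown list shared 45.1% of its peaks with RKO control, against 73.1% in LOVO. Lists held 28237 to 29102 peaks in the ovarian controls, 15484 and 15744 in OVCAR8 knockdown, 26178 and 26865 in SKOV3 knockdown, and 31060 to 37398 in the colorectal lists. The summed peaks of 8 intestinal marker genes were 33 and 38 in LOVO, 14 and 4 in RKO and 0 to 7 in the ovarian lists. Those of 6 ovarian and Muellerian marker genes were 4 to 16 in the ovarian lists and 0 to 5 in the colorectal lists, with SOX17, EMX2 and WT1 at 0 peaks in every list. METTL3 itself carried 0 to 3 peaks in a list, which does not measure its RNA and so does not check the knockdown.

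Annotated starts of the genes are shown first, because peaks at 2 of them were held by every list. RefSeq promoter windows, 250 bases before to 50 bases after an annotated start, were given for 8 of the 9 genes, 14 windows in all. A peak on the same strand overlapped 7 of the 14 windows in at least 1 list, against 10% of the windows of all genes, and 2 of the 14 in all 12 lists, against 0.489%. Those 2 windows belong to EP300 and to the fourth annotated start of BRD2. Of the 7 windows with a peak in any list, 4 were those of BRD2, so most came from 1 gene. EP300, KAT2A and KAT7 had 1 each, and CREBBP, KAT6B, KAT2B and BRD3 had none. The EP300 bases are the 250 before the gene start (GRCh38.p14, chr22:41092342-41092591, plus strand, from RefSeq), which peaks overlapped in 12 lists and covered whole in 7.
EP300 upstream: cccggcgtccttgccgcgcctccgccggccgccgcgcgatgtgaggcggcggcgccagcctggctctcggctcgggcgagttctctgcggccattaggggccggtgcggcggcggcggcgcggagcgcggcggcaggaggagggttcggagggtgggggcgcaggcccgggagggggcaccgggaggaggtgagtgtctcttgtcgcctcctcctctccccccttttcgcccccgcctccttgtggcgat
No letter is in capitals because GGACT does not occur in these bases. Their GC content was 76.8%, against a median of 58.4% over the same stretch of all windows, with 35 CG pairs.

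GGACT on the strand of the gene occurred in 5 of the 14 windows and in 25.3% of the windows of all genes, and on either strand in 8 of the 14 and in 44.1%. The 5 matches are shown with the bases around them, 30 in each, so that windows with and without peaks can be compared, and the capitals mark GGACT. A match is a description of the letters and does not show a methylated site.
BRD2 window 4: accgaggccacccGGACTttccgcggctga
BRD2 window 3: tttgtggtctttgGGACTaaacagtagtaa
KAT2A window 1: tcgtgactctcccGGACTccattaaaagag
CREBBP window 1: accatgttctcggGGACTgcctgagccgcc
BRD3 window 1: cgggcccggccgcGGACTacgactcccgcc
The BRD2 stretch at chr6:32972842-32972871 lay inside a peak in all 12 lists. The BRD2 stretch at chr6:32971372-32971401 was in no peak, although peaks touched another portion of its window in 11 lists. The KAT2A stretch (chr17:42121535-42121564, minus strand) was covered in 2 lists, OVCAR8 control replicate 2 and RKO knockdown; it lies before the gene, and the OVCAR8 peak does not reach the gene body and is not counted below. The CREBBP (chr16:3880272-3880301) and BRD3 (chr9:134068074-134068103) stretches, both on the minus strand, were covered in 0 lists. Windows with a peak were thus found with the motif (BRD2, inside its gene body) and without it (EP300), and the motif with and without peaks. The motif was searched in the windows only. The EP300 peak region extends beyond its window on both sides, and those bases were not searched.

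The number of peaks per gene separated the 9 genes into 6 with peaks in all 12 lists and 3 with few. EP300, CREBBP, KAT6A, KAT6B, BRD2 and BRD3 carried at least 1 peak in every list. KAT2A had peaks in 6 lists, KAT7 in 5 and KAT2B in 1. Per 100 kb of gene, the mean number of peaks over the 12 lists was 54.2 in BRD2, 10.5 in BRD3, 10.1 in KAT2A, 7.21 in KAT6A, 5.62 in EP300, 4.66 in CREBBP, 2.77 in KAT6B, 1.26 in KAT7 and 0.07 in KAT2B, while the median of the 8870 genes with a mean of at least 1 peak per list was 5.98. BRD2, a short gene of 12.9 kb, was thus dense in peaks and KAT2B, of 114 kb, nearly free of them. The 9 genes together held 32 to 60 peaks in the control lists and 25 to 43 in the knockdown lists.

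**Figure D1:**
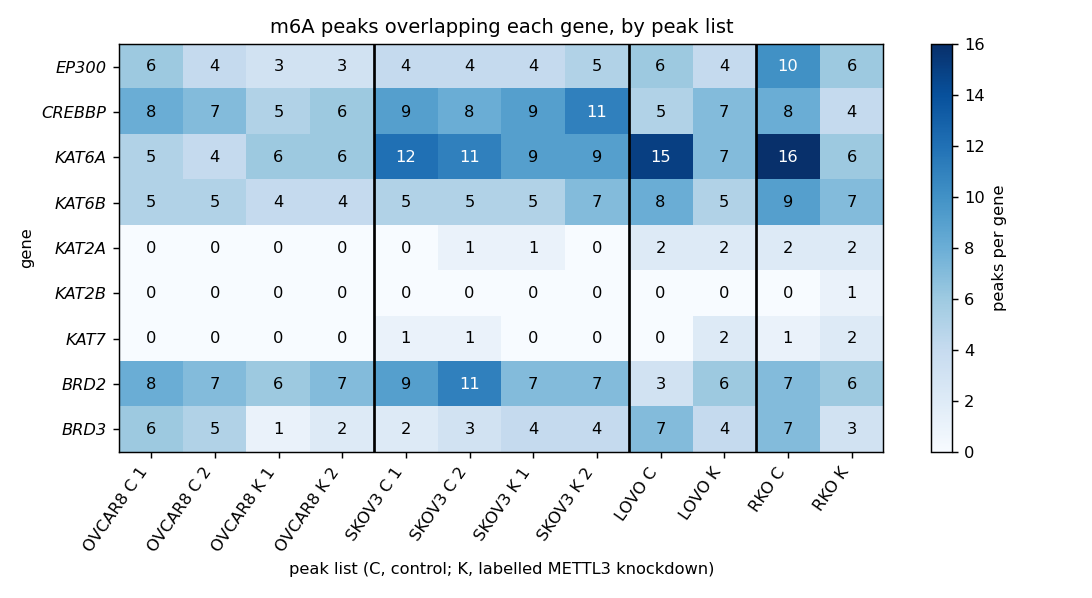
Number of m6A peaks overlapping each of the 9 genes (rows) in each of the 12 peak lists (columns; C is control and K is labelled METTL3 knockdown), with the number printed in each cell and shown by the depth of blue. KAT6A is highest at 16 in RKO control and 15 in LOVO control, and the KAT2A, KAT2B and KAT7 rows hold 0 to 2.

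Among the coactivator pair, EP300 (chr22:41092592-41180077) had 6 and 4 peaks in the OVCAR8 controls against 3 and 3 under the knockdown label, 4 and 4 against 4 and 5 in SKOV3, 6 against 4 in LOVO and 10 against 6 in RKO. Its highest value was that of RKO control. CREBBP (chr16:3725054-3880713) had 8 and 7 peaks in the OVCAR8 controls against 5 and 6 under the knockdown label, 9 and 8 against 9 and 11 in SKOV3, 5 against 7 in LOVO and 8 against 4 in RKO. Both genes had fewer peaks in each OVCAR8 knockdown list than in each OVCAR8 control list, and in SKOV3 the groups overlapped.

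KAT6A, whose fusions occur in leukaemia, had the widest range of the 9 genes, 4 to 16 peaks. It carried 5 and 4 peaks in the OVCAR8 controls against 6 and 6 under the knockdown label, 12 and 11 against 9 and 9 in SKOV3, 15 against 7 in LOVO and 16 against 6 in RKO. Knockdown lists were below controls in 3 lines and above them in OVCAR8, where controls were lowest. Its paralogue KAT6B (chr10:74824936-75032624) varied less, with 5 and 5 peaks in the OVCAR8 controls against 4 and 4 under the knockdown label, 5 and 5 against 5 and 7 in SKOV3, 8 against 5 in LOVO and 9 against 7 in RKO. The third MYST gene, KAT7 (chr17:49788681-49835026), had 1 and 1 in SKOV3 control, 2 in LOVO knockdown, 1 in RKO control, 2 in RKO knockdown and 0 in the other 7 lists.

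The SAGA enzymes carried few peaks. KAT2A (chr17:42113111-42121367) had 1 peak in SKOV3 control replicate 2, 1 in SKOV3 knockdown replicate 1 and 2 in each of the 4 colorectal lists. KAT2B (chr3:20040446-20154404) had 1, in RKO knockdown, 0.2 kb after its start. Low numbers in these genes can reflect little RNA as well as little methylation, since input libraries were not analysed here, and the same holds for every difference in peaks below.

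Of the BET genes, BRD2 (chr6:32968594-32981505) had 8 and 7 peaks in the OVCAR8 controls against 6 and 7 under the knockdown label, 9 and 11 against 7 and 7 in SKOV3, 3 against 6 in LOVO and 7 against 6 in RKO. It was the tested gene with the fewest peaks in LOVO control. BRD3 (chr9:134030305-134068548) had 6 and 5 peaks in the OVCAR8 controls against 1 and 2 under the knockdown label, 2 and 3 against 4 and 4 in SKOV3, 7 against 4 in LOVO and 7 against 3 in RKO. It moved in opposite directions in the 2 ovarian lines as labelled.

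When overlapping peaks of all lists were merged by strand, the 9 genes held 82 regions, 75 on the strand of the gene and 7 on the opposite strand. KAT6A had no promoter window, so its strand was taken as that of most of its own regions. Its split of 19 and 1, and which end is its start, therefore rest on the peaks themselves. A peak was present in all 12 lists in 12 regions, or 14.6%, against 5.84% of the 78603 merged regions in genes. It was present in 1 list only in 21 regions, or 25.6%, against 36.3%. The 12 shared regions were spread over EP300 (3), KAT6A (3), CREBBP (2), KAT6B (2) and BRD2 (2), and BRD3 had none, although 2 of its 7 regions were found in 11 lists. Shared regions were wide, with a median of 1420.5 bp against 168 bp for regions of 1 list, and merging peaks of 12 lists itself widens them. Their peaks were also strong for their lists: by percentile of peak strength within a list (from -log10 p in the ovarian lists and the authors' score in the colorectal lists), the median over lists ranged from 45.4 to 98.4 among the 12 regions with a median of 94.2, and regions of 1 list had a median of 25.2.

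**Figure D2:**
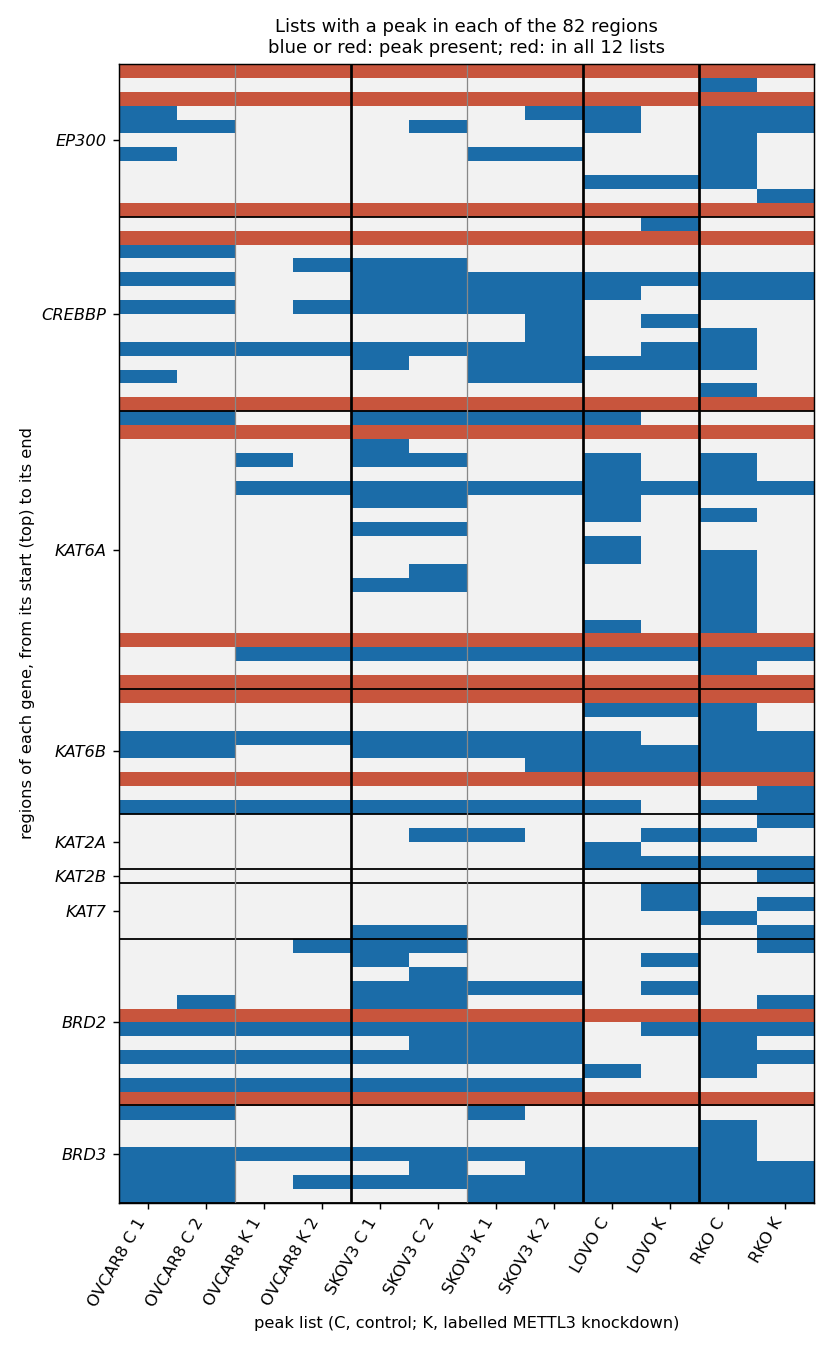
Presence of a peak (coloured) or none (grey) in each of the 82 regions, one row each, grouped by gene and ordered from the start of the gene to its end, across the 12 lists (C, control; K, labelled METTL3 knockdown). The 12 rows in red hold a peak in all 12 lists; RKO control has the most regions, 56, and OVCAR8 knockdown replicate 1 the fewest, 22.

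The shared regions lay in the earlier part and the last 10% of the genes. Of the 12, 6 had their middle in the last 10% of the gene and 3 in the first 10%. Of all 82 regions of these genes, 23 had their middle in the last 10%. Places of the shared regions of all genes were not counted, so this layout is not set apart from theirs. The regions near the ends were 2.64 kb wide in EP300 (chr22:41176497-41179132, 2.3 kb before the end), 2.49 kb in CREBBP (chr16:3727507-3729998, 3.7 kb before the end), 1.43 kb in KAT6B (chr10:75028450-75029876, 3.5 kb before the end), 1.41 kb in BRD2 (chr6:32979729-32981142, 1.1 kb before the end) and 3.04 kb in KAT6A (4.0 kb before the end). The table of genes gives no exons, so it was not read whether these are coding or untranslated bases. KAT6A had another, 11.7 kb before the end. Apart from the region at the start of EP300, the other shared regions had their middle between 2.6% and 30.7% of the gene's length, at 24.9 kb from the start of EP300 (chr22:41117138-41117877), 30.1 kb in CREBBP (chr16:3850163-3851106), 18.2 kb in KAT6B (chr10:74842658-74843670), 4.0 kb in BRD2 (chr6:32971503-32973607) and 3.1 kb in KAT6A. EP300, CREBBP, KAT6A and KAT6B each had a shared region at 2.6% to 28.5% of their length and another in the last 10%. BRD3, KAT2A, KAT2B and KAT7 had no shared region.

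**Figure D3:**
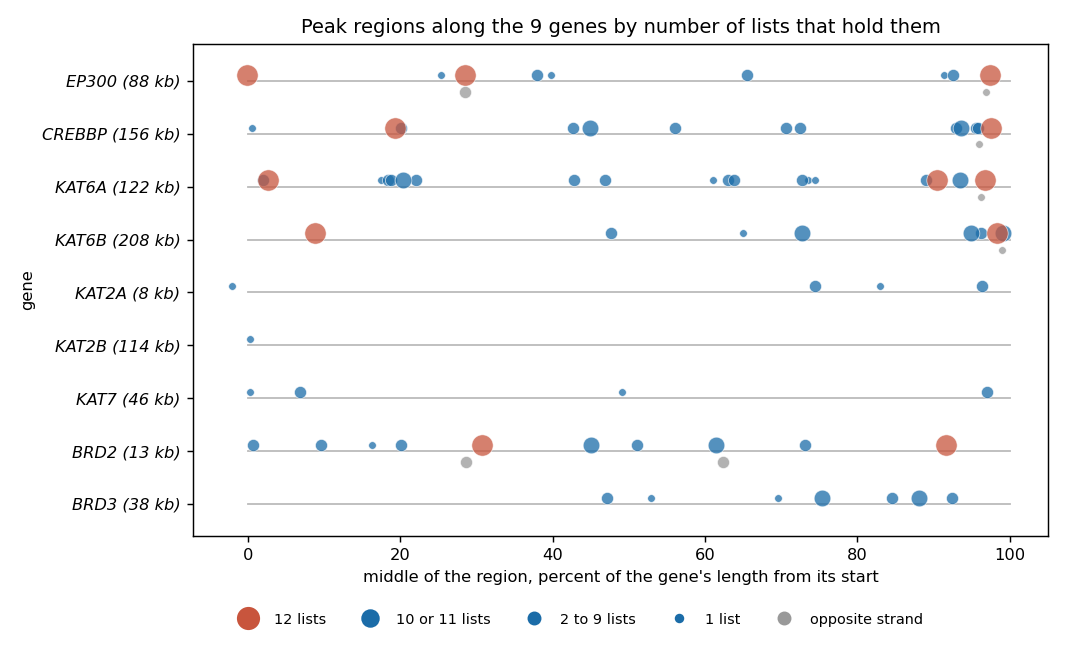
Middle of each of the 82 regions as percent of the gene's length from its start (horizontal axis), one line per gene with its length, and point size by the number of lists with a peak. Red points, in all 12 lists, number 6 in the last 10% of the genes; grey points below the line are on the opposite strand.

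The region at the start of EP300 (chr22:41091666-41093200) was present in every list, but its place within the lists varied. The authors' fold enrichment there was 7.18 and 7.5 in the OVCAR8 controls against 24.01 and 25.84 under the knockdown label, and 20.96 and 22.36 in the SKOV3 controls against 5.64 and 6.53. The corresponding percentiles of peak strength within each list were 71.8 and 75.1, 99.7 and 99.9, 98.4 and 99.1, and 61.7 and 73.4. The lists labelled OVCAR8 knockdown were near those of SKOV3 control here, and those labelled SKOV3 knockdown near those of OVCAR8 control. In LOVO the percentile was 91.3 in control and 95.7 in knockdown, and in RKO 10.8 and 67.9. By contrast the internal EP300 region 24.9 kb from the start was at a percentile of 98.2 to 99.7 in all 8 ovarian lists and of 70.8 to 90.3 in the colorectal lists. Folds and percentiles rank a peak within its list and are not a measure of change between lists.

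Of the 9 genes, KAT6A held the most regions that told the ovarian controls apart. In both SKOV3 control lists and neither OVCAR8 control list there were 11 regions, 6 of them in KAT6A, and in the reverse pattern there were 3, of which BRD3 had 2. Of the 11, the lists labelled OVCAR8 knockdown both held 2 and neither held 6, and those labelled SKOV3 knockdown both held 4 and neither held 7. The 2 found in all 4 knockdown lists were KAT6A regions 24.9 kb after the start and 8.0 kb before the end, which were absent from both OVCAR8 control lists and present in the 10 other lists. The BRD3 region 2.9 kb before the end (chr9:134032652-134033732) was present in OVCAR8 control, the lists labelled SKOV3 knockdown and the 4 colorectal lists, and absent from SKOV3 control and the lists labelled OVCAR8 knockdown. A CREBBP region 69.9 kb from the start (chr16:3810641-3810914) and a KAT6B region 197.1 kb from the start (chr10:75021911-75022157) were absent from the lists labelled OVCAR8 knockdown and present in the 10 other lists. In the colorectal lines, 28 regions were found that no ovarian list held, and 9 were found in ovarian lists only. The colorectal lists were longer and hold another score. Shares over the regions of all genes were not counted for any pattern in this paragraph, so these numbers do not set the 9 genes apart.

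Whether peaks per gene fell with knockdown was tested over the 4 lines with limma on log2(peaks + 1), with the line as covariate. The ovarian knockdown lists entered as labelled and were not exchanged in this fit. If those labels are wrong, differences between lines enter its spread, so an absence of calls does not show unchanged peaks. No gene of the 9 was called. Of the 6 with a mean of at least 1 peak per list, 0 passed in either direction. Of the 8642 genes fitted 0 passed (0.0%), and 901 had an unadjusted p under 0.05. An exact permutation test within lines, run on the 8870 genes past the filter, gave 297 such genes and called 0. With this many lists its smallest possible p passes adjustment only if a large share of genes reach it. Its 0 calls therefore add nothing to those of limma. Differences (knockdown minus control) were -0.57 (SE 0.31) in BRD3, -0.37 (SE 0.23) in KAT6A, -0.33 (SE 0.17) in EP300, -0.17 (SE 0.15) in KAT6B, -0.13 (SE 0.19) in CREBBP and -0.11 (SE 0.18) in BRD2, and the median of all genes was -0.20. The lowest unadjusted p among the 6 was 0.08, in EP300 (limma; adjusted p 0.545). Every one of these differences was within 2 SE of 0, and values for 5 of the 6, all but BRD3, changed sign when taken relative to all gene-assigned peaks of a list, a scaling that moved the median of all genes to 0.19.

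The direction of the peak numbers differed by line. In RKO all 6 tested genes had fewer peaks in the knockdown list, where 48.9% of the 8870 genes past the filter did. In LOVO 4 had fewer (39.8% of genes) and CREBBP and BRD2 more (24.5%). In OVCAR8 as labelled, EP300, CREBBP, KAT6B and BRD3 had fewer in each knockdown list than in each control list (43.2% of genes) and KAT6A more (14.6%). In SKOV3 as labelled, KAT6A and BRD2 had fewer (27.7%) and BRD3 more (28.2%). Except in RKO, no direction was common to the 6 genes, and RKO and LOVO have 1 list per group and hence no test.

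In OVCAR8 as labelled, 3 of the 6 tested genes fell, where 43.1% of 6634 genes did, and 1 rose, where 13.1% did (limma on group means, 2 lists per group). BRD3 fell by 1.40 on the log2(peaks + 1) scale (SE 0.22, adjusted p 0.000363), EP300 by 0.56 (SE 0.18, adjusted p 0.0223) and CREBBP by 0.39 (SE 0.15, adjusted p 0.0467), while KAT6A rose by 0.35 (SE 0.13, adjusted p 0.0367). KAT6B at -0.26 and BRD2 at -0.18 did not pass. The median of all genes was -0.42, so EP300 and CREBBP lay near the shift of the whole table and BRD3 below it. These directions belong to peak numbers as such: relative to all gene-assigned peaks, where the median of all genes was 0.45 and 1297 genes were lower and 2963 higher in place of 2862 and 871, CREBBP was called higher, at 0.48 (adjusted p 0.0165), the opposite of its call in peak numbers. KAT6B at 0.60 (adjusted p 0.00635), BRD2 at 0.68 (adjusted p 0.00234) and KAT6A at 1.22 (adjusted p 2.82e-05) were called higher as well, and EP300 at 0.30 (adjusted p 0.177) and BRD3 at -0.54 (adjusted p 0.0538) were not called. With 15484 peaks per list BRD3 was at -0.29 (adjusted p 0.41) and KAT6A at 0.35 (adjusted p 0.066), neither called, BRD2 was called higher at 0.49 (adjusted p 0.0291), and 922 genes were lower and 1190 higher. Of the 4 calls in peak numbers, that of BRD3 outlasted leaving out each ovarian list in turn (-1.70 to -1.11). EP300 was no longer called without OVCAR8 control replicate 1 (-0.32, adjusted p 0.277), knockdown replicate 1 (-0.56, adjusted p 0.0538) or knockdown replicate 2 (-0.56, adjusted p 0.053), CREBBP without control replicate 1 (-0.30, adjusted p 0.233), control replicate 2 (-0.47, adjusted p 0.0554) or knockdown replicate 1 (-0.28, adjusted p 0.244), and KAT6A without any list other than control replicate 1 (0.22 to 0.35, adjusted p 0.0529 to 0.318). Genes with equal values in both lists of every group were left out of the fit, and when they were kept EP300 (adjusted p 0.0677) and CREBBP (adjusted p 0.0827) did not pass, while BRD3 (adjusted p 0.0105) and KAT6A (adjusted p 0.0397) did. CREBBP also did not pass with a pseudocount of 0.5 (-0.42, adjusted p 0.0506) or with no filter (adjusted p 0.0512), and with a fold of at least 5 both CREBBP and KAT6A were at 0.00.

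In SKOV3 as labelled, BRD2 fell by 0.45 (SE 0.14, adjusted p 0.0238), 1 of 6 tested genes where 23.6% of 6634 were lower, and 0 of the 6 rose where 25.4% were higher (limma, 49.0% in either direction). BRD3 was at 0.53 (SE 0.22, unadjusted p 0.0398, adjusted p 0.0757), KAT6A at -0.32 (adjusted p 0.0617), CREBBP at 0.21, KAT6B at 0.21 and EP300 at 0.13, and the median of all genes was 0.00. The BRD2 value was -0.32 (adjusted p 0.243) without SKOV3 control replicate 2, -0.45 without knockdown replicate 1 (adjusted p 0.0837) or replicate 2 (adjusted p 0.0825), -0.35 (adjusted p 0.0657) relative to all gene-assigned peaks, and 0.13 (adjusted p 0.526) with equal numbers of peaks per list. BRD3 passed in SKOV3 without OVCAR8 knockdown replicate 1 (adjusted p 0.035) or 2 (adjusted p 0.0377), without SKOV3 control replicate 2 (0.74, adjusted p 0.0248) and relative to all gene-assigned peaks (0.63, adjusted p 0.0366), and CREBBP with equal numbers of peaks (0.52, adjusted p 0.0357). The difference between the OVCAR8 and the SKOV3 effect, tested directly, passed in 4 of the 6 genes, against 63.0% of all genes (41.3% lower and 21.7% higher): BRD3 at -1.93 (SE 0.32, adjusted p 0.000349), KAT6A at 0.67 (SE 0.18, adjusted p 0.00792), CREBBP at -0.60 (SE 0.21, adjusted p 0.0308) and EP300 at -0.70 (SE 0.26, adjusted p 0.0381), by limma.

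**Figure D4:**
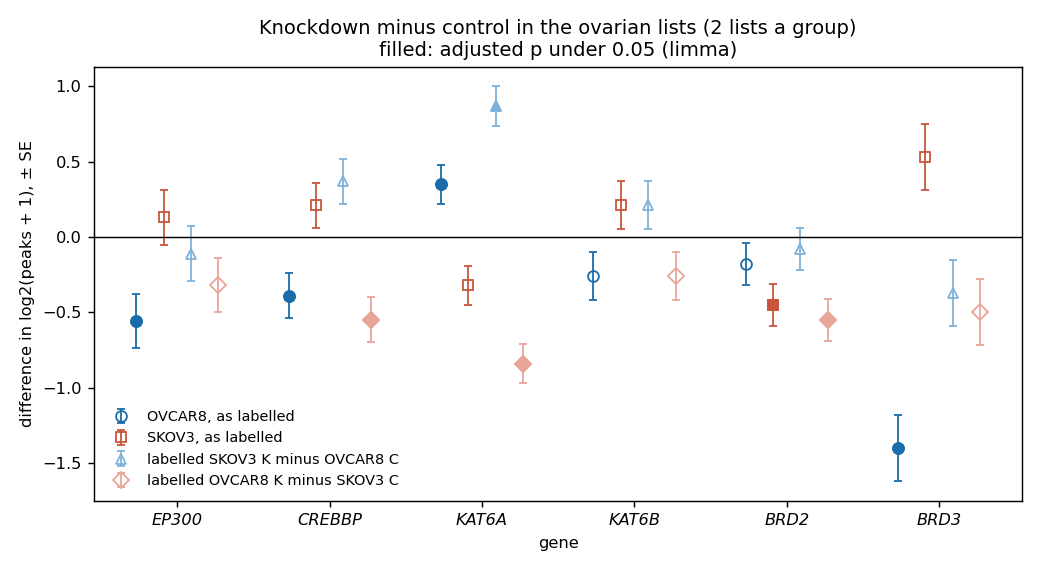
Knockdown minus control difference in log2(peaks + 1) with its SE (vertical axis) for the 6 tested genes, for OVCAR8 (blue circles) and SKOV3 (red squares) as labelled and for the knockdown lists set against the other line's control (light triangles and diamonds); filled symbols have an adjusted p under 0.05. BRD3 lies at -1.40 in OVCAR8 as labelled and at -0.37 and -0.50 in the exchanged comparisons, and KAT6A at 0.87 and -0.84 in the latter.

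With the knockdown lists exchanged between the ovarian lines, KAT6A, CREBBP and BRD2 were called and BRD3 and EP300 were not. Against OVCAR8 control, the lists labelled SKOV3 knockdown differed in KAT6A, at 0.87 (SE 0.13, adjusted p 0.00354), 1 of the 6 where 3.87% of genes were higher, and 0 of the 6 were lower (3.21% of genes, 7.08% in either direction). CREBBP had an unadjusted p of 0.033. Against SKOV3 control, the lists labelled OVCAR8 knockdown were lower in KAT6A at -0.84 (adjusted p 0.000675), BRD2 at -0.55 (adjusted p 0.0125) and CREBBP at -0.55 (adjusted p 0.0148), 3 of the 6 where 36.5% of genes were lower, and 0 of the 6 were higher (1.64%; 38.2% in either direction), by limma. BRD3, the gene with the clearest fall as labelled, was at -0.37 (adjusted p 0.441) and -0.50 (adjusted p 0.108). Between the controls themselves, OVCAR8 was below SKOV3 in KAT6A by 1.19 on the log2 scale (-1.19, SE 0.13, adjusted p 2.05e-05) and above it in BRD3 (0.90, SE 0.22, adjusted p 0.00596), 1 of 6 genes in each direction where 26.6% and 27.6% of all genes were lower and higher, 54.3% together. These comparisons share their lists, so their values are not independent of each other. BRD2 was the gene with a negative value in all 4 of the comparisons with knockdown lists, from -0.55 to -0.08, and with equal numbers of peaks per list its values as labelled were positive, 0.49 in OVCAR8 (called, adjusted p 0.0291) and 0.13 in SKOV3 (adjusted p 0.526).

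Regions of the control lists were then followed into the knockdown lists of the same line. A control region was counted as lost when no knockdown peak on the same strand overlapped it by 1 bp. Of the regions of the 9 genes, 8 of 31 OVCAR8 ones were lost (25.8%, exact 95% binomial interval 11.9% to 44.6%) where 57.8% of all regions were, and 8 of 37 SKOV3 ones (21.6%, 9.83% to 38.2%) where 44.4% were. The colorectal lines lost 17 of 46 (LOVO: 37.0%, 23.2% to 52.5%, against 37.8% of all) and 32 of 60 (RKO: 53.3%, 40% to 66.3%, against 60.1% of all). The intervals cover counting only and take regions of a gene as independent, which they are not. The ovarian percentages lay below those of all regions, and the colorectal ones within their intervals of it. From the loss of all control regions of the same 10% class of peak strength, the shares lost would be 51.9% (OVCAR8), 37.7% (SKOV3), 35.7% (LOVO) and 58.03% (RKO), and only the OVCAR8 value lies outside the interval. In the strongest 10% of control regions these genes had 7 to 11 per line, and 0 of them were lost in any line. The loss over all regions of that class is not given here, so the 0 does not set these genes apart. The median percentile of strength was 75.2, 82.2, 72.9 and 82 among kept regions of these genes in OVCAR8, SKOV3, LOVO and RKO, and 30, 36, 24.9 and 37.2 among lost ones. Lost regions were thus weaker in the controls than kept ones at the median. In the same order, 5 of 8, 4 of 8, 9 of 17 and 15 of 32 lost regions were in the weakest 30% of control regions.

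With the ovarian lists exchanged, 2 of 31 OVCAR8 control regions of these genes (6.45%) had no peak in the lists labelled SKOV3 knockdown, where 14.6% of all regions had none. Of the SKOV3 control regions, 10 of 37 (27.0%) had none in the lists labelled OVCAR8 knockdown, where 44.3% of all had none. Against the exchanged lists, 7 of 36 regions under the SKOV3 knockdown label were gained relative to OVCAR8 control (19.4%, 8.81% of all), and 0 of 23 under the OVCAR8 label relative to SKOV3 control (1.94% of all). As labelled, gained regions, present in every knockdown list of a line and in no control list, numbered 2 of 23 for OVCAR8 (8.70%, against 25.9% of all) and 3 of 36 for SKOV3 (8.33%, 36.5%). They numbered 10 of 37 for LOVO (27.0%, 26.9%) and 9 of 37 for RKO (24.3%, 54.9%). In RKO the gained share was below that of all regions, whose value was the highest of the 4 lines.

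**Figure D5:**
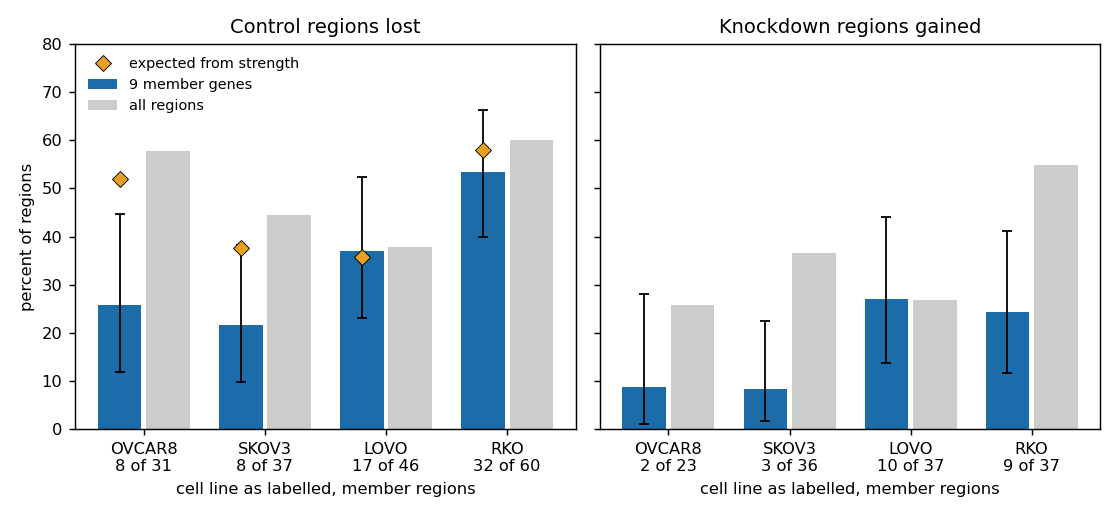
Percent of control regions lost (left) and of knockdown regions gained (right) in each line as labelled, for the 9 genes (blue bars with exact 95% binomial intervals) and for all regions (grey bars), with the percent expected from peak strength as diamonds; numbers of member regions stand under the bars. Lost shares of the 9 genes are 25.8% and 21.6% in OVCAR8 and SKOV3, below the grey bars, and 37.0% and 53.3% in LOVO and RKO.

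KAT6A accounted for the largest number of lost regions in 3 lines. It also had the most control regions of the 9 genes there. KAT6A lost 9 of 15 regions in LOVO, 11 of 16 in RKO and 4 of 10 in SKOV3, and 1 of 4 in OVCAR8, where it gained 2 of 5. Of all regions, 37.8% were lost in LOVO, 60.1% in RKO, 44.4% in SKOV3 and 57.8% in OVCAR8, where 25.9% were gained. Its 3 shared regions were kept in every line, and 4 of its 20 regions were found in both colorectal controls and in no other list. A single region of the 82 was lost in 3 lines, a KAT6A region of 0.47 kb at 22.6 kb from the start, with a peak in both SKOV3 control lists, LOVO control, RKO control and 1 of the lists labelled OVCAR8 knockdown. In the order OVCAR8, SKOV3, LOVO and RKO, BRD3 lost 3 of 5, 0 of 2, 1 of 7 and 4 of 7 regions. EP300 lost 1 of 4, 0 of 3, 2 of 6 and 5 of 10, and in RKO 3 of its 11 regions were found in the control list alone.

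KAT6B kept most of its regions in every line, and CREBBP in all but RKO. In the same order CREBBP lost 2 of 7, 1 of 8, 1 of 5 and 4 of 8, KAT6B lost 1 of 5, 0 of 5, 2 of 8 and 2 of 9, and BRD2 lost 0 of 6, 2 of 8, 1 of 3 and 4 of 7. The shares of all regions lost were 57.8%, 44.4%, 37.8% and 60.1% in that order. Of all regions, 26.9% were gained in LOVO and 54.9% in RKO. BRD2 gained 4 of 6 in LOVO, among them the region 5.8 kb from its start (chr6:32974018-32974802), which every list but LOVO control held. The 2 regions found in the SKOV3 controls and not in the lists labelled SKOV3 knockdown were the one at the first annotated start of BRD2 (chr6:32968574-32968796) and an opposite-strand region (chr6:32972129-32972449). Of the sparse genes, KAT7 lost its only SKOV3 region and its only RKO region and gained 2 regions in LOVO and 2 in RKO.

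The genes with peak numbers most like those of each tested gene over the 12 lists were sought among 8691 other genes, by Pearson correlation of log2(peaks + 1), as a description in which line, condition and list length are shared. The 2 most alike were TMEM168 (0.934) and CNOT2 (0.924) for EP300, B4GALT2 (0.920) and BMS1P2-AGAP9 (0.902) for CREBBP, and ZFP91 and the overlapping read-through gene ZFP91-CNTF (both 0.945) for KAT6A. They were BMPR1A (0.926) and TSTD2 (0.921) for KAT6B, PRKAR1B (0.955) and UHRF1 (0.942) for BRD2, and SNX24 (0.967) and ATP2B1 (0.954) for BRD3. BRD3 had 45 genes at 0.9 or more and CREBBP had 2, so a likeness of this size was common for some patterns. Among the 6 genes themselves, EP300 and KAT6B were the most alike (0.89), EP300 and CREBBP stood at 0.05 and KAT6A and KAT6B at 0.61. The coactivator paralogues therefore did not vary together in peak number.

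Genes of related function were counted in the same fits: other acetyltransferases, partners of the MYST enzymes, SAGA and ATAC subunits, other bromodomain genes and deacetylases, 68 genes of which 47 had a mean of at least 1 peak per list. Over the lines 0 of 47 passed, with a median of -0.22. In OVCAR8 as labelled 18 of 38 fitted genes fell (43.1% of all genes) and 3 rose (13.1%), with a median of -0.51 against -0.42 for all genes. In SKOV3 as labelled 7 fell (23.6% of all) and 9 rose (25.4%), with a median of 0.00, as over all genes. Exchanging the knockdown lists left 2 lower (3.21% of all) and 3 higher (3.87%) of 38 against OVCAR8 control, and 12 lower (36.5%) and 0 higher (1.64%) against SKOV3 control. By group, those lower in OVCAR8 as labelled were 5 of 9 other acetyltransferases, 3 of 5 MYST partners, 0 of 7 SAGA and ATAC subunits, 6 of 12 bromodomain genes and 5 of 6 deacetylases, which remove what the acetyltransferases add. Those higher in SKOV3 were 1, 1, 1, 2 and 4 of the same groups. With the lists exchanged, 0 of the 6 deacetylases were called against OVCAR8 control and 1 was lower against SKOV3 control.

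Of the 6 related genes with the lowest adjusted p (limma), 4 were called in both ovarian lines as labelled and in opposite directions, and BRD9 and SUPT3H in 1 line. JADE2, a scaffold of KAT7 complexes, had 13 and 13 peaks in the OVCAR8 controls against 2 and 2 under the knockdown label (-2.22, adjusted p 4.67e-07), and 5 and 4 against 12 and 13 in SKOV3 (1.30, adjusted p 1.89e-05). HDAC4, a class IIa deacetylase, had 16 and 14 against 1 and 2 in OVCAR8 (-2.70, adjusted p 2.43e-06) and 2 and 3 against 12 and 14 in SKOV3 (2.01, adjusted p 2.1e-05). ATAD2B, a bromodomain gene, had 8 and 8 against 1 and 1 in OVCAR8 (-2.17, adjusted p 6.73e-06) and 1 and 2 against 7 and 6 in SKOV3 (1.61, adjusted p 6.4e-05). With the lists exchanged, HDAC4 and ATAD2B were not called in either comparison, and JADE2 was called lower against SKOV3 control (-0.87, adjusted p 0.000683) and not called against OVCAR8 control (-0.05, adjusted p 0.98). BRD9, a subunit of a SWI/SNF complex, fell in OVCAR8 (-1.64, adjusted p 3.3e-06), from 11 and 12 to 3 and 3, and had 4 and 4, and 5 and 5, in SKOV3 control and knockdown. CECR2, a bromodomain gene (-2.45, adjusted p 4.64e-06), and SUPT3H, a SAGA subunit (-2.45, adjusted p 5.61e-06), fell in SKOV3 from 5 and 4, and from 4 and 5, to 0 in both knockdown lists, and had 0 in both OVCAR8 control lists. CECR2 had 1 and 1 in the lists labelled OVCAR8 knockdown and was called higher there (1.00, adjusted p 0.00183).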

How the data were processed

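The 9 genes and the lists of related genes were chosen with earlier results of these data known. The series holds 32 libraries, 16 of MeRIP and 16 of input, and the 12 deposited peak lists were used. The submitters' processing notes name hg38 as the build and list MACS2 2.2.7.1, HISAT2 2.1.0, Bowtie2 2.4.2 and Trim Galore 0.6.6. The ovarian lists, 1 per library, hold peaks called per strand with the authors' fold enrichment (a linear ratio) and their deposited p-values and q-values as -log10, with no -log10 q below 2. The colorectal lists hold 1 list per group with a deposited score that no header explains, none below 3, and the sources used here do not say how replicates entered them. Read depth is unknown, and the number of lists limits the precision.

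Peaks on chromosomes 1 to 22 and X were counted per RefSeq gene (GRCh38.p14). Genes with a mean of at least 1 peak per list were tested with limma 3.58.1 in R 4.3.3 on log2(peaks + 1), with Benjamini-Hochberg adjustment over all genes fitted and a threshold of 0.05. Genes with no residual spread, 228 over lines and 2236 by group, were left out of the fits, a departure from the plan. Simulated data were also fitted without such genes, and no simulated fit that keeps them is given. On simulated data with 200 genes changed 4-fold, 188 were recovered with 1 false call among 7894 genes over lines, and 166 with 14 false calls among 6687 genes in OVCAR8. The changed genes were drawn from those with a mean above 4 peaks, while the median of the genes tested was 2.17. They changed alike in every line, no labels were exchanged, and lists of a group differed only by random loss of peaks. The real lists depart from these settings, so the recovered numbers do not give the power of the real fits. A region of a group joins overlapping peaks of one strand and needs a peak in each of its lists. The genes named were all 9, the 2 most alike per gene, at most 6 related genes past a test, and regions in all lists or lost in 3 or more lines; other single regions were chosen after their values were seen. Python 3.11.15 was used with pandas 2.3.3, numpy 2.4.6, scipy 1.17.1 and matplotlib 3.10.9. Alternatives were another pseudocount, no filter, scaling to gene-assigned peaks, equal peaks per list, a fold or score of at least 5, peaks in 1 gene only, a replicate block, lists left out, exchanged ovarian lists and, for regions, other overlap rules. Replicate numbers did not pair the lists: the correlation of replicate deviations was 0.018 in OVCAR8 and 0.008 in SKOV3.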

Additional observations from a re-analysis of the deposited data

Results flagged for a closer look

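The OVCAR8 effect minus the SKOV3 effect on log2(peaks + 1), as labelled, passed the test of the difference (limma, adjusted over 6634 genes) in EP300 (-0.70), CREBBP (-0.60), KAT6A (0.67) and BRD3 (-1.93). As labelled, both lines' knockdown lists are in question, as described above.

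Peak numbers also went opposite ways in pairs of lines that include LOVO or RKO, or in KAT7, and those differences were not tested; the OVCAR8 against SKOV3 differences of KAT6A and BRD3 are the tested ones above. CREBBP had more peaks in LOVO knockdown (0.42 on the log2(peaks + 1) scale) and fewer in OVCAR8 and RKO knockdown. KAT6A had more in OVCAR8 (0.35) and fewer in SKOV3, LOVO and RKO. BRD3 had more in SKOV3 (0.53) and fewer in OVCAR8, LOVO and RKO. BRD2 had more in LOVO (0.81) and fewer in SKOV3 and RKO. KAT7, too sparse to be fitted, had more in LOVO (1.58) and RKO (0.58) and fewer in SKOV3, all on 0 to 2 peaks a list. LOVO and RKO had 1 list per group, so their part is a difference between 2 lists.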

How the results depend on the processing

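Over the lines the number of genes called was 0 and became 1 when genes without residual spread were kept (an alternative added after seeing the data), 1 with a fold or score of at least 5 and 1 without the RKO lists, and it was 0 without each ovarian list in turn. Values of single genes over the lines that changed sign, none of them called, were EP300 0.06, CREBBP 0.26, KAT6A 0.02, KAT6B 0.22 and BRD2 0.28 relative to all gene-assigned peaks, CREBBP 0.15, KAT6B 0.07 and BRD2 0.21 with equal numbers of peaks per list, BRD2 0.15 with a fold or score of at least 5, CREBBP 0.01 without the RKO lists, and KAT6A 0.02 with OVCAR8 and SKOV3 only. In OVCAR8 the 3733 genes called became 2112 with equal numbers of peaks, 1835 with a fold or score of at least 5 and 470 against the exchanged lists, and ranged from 3017 to 3391 without each list. In SKOV3 the 3249 became 2048 and 1637, and ranged from 2380 to 3080. Signs changed in OVCAR8 relative to all gene-assigned peaks (EP300 0.30, CREBBP 0.48, KAT6B 0.60, BRD2 0.68), with equal numbers of peaks (CREBBP 0.24, KAT6B 0.16, BRD2 0.49) and against the exchanged lists (CREBBP 0.37, KAT6B 0.21). They changed in SKOV3 with equal numbers of peaks (BRD2 0.13) and against the exchanged lists (EP300 -0.32, CREBBP -0.55, KAT6B -0.26, BRD3 -0.50). The cause of these changes was not tested, except that equal numbers of peaks and a higher fold leave fewer peaks to count. EP300 could not be fitted in OVCAR8 with equal numbers of peaks or a fold of at least 5, BRD3 with the latter, and KAT6B without either list labelled SKOV3 knockdown.

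The lost share in OVCAR8 was 5.26% with equal numbers of peaks (44.5% of all regions) and 6.45% against the exchanged lists (14.6% of all). It was 28.1% and 39.5% without replicate 1 or 2. The 51.9% expected there from peak strength is the loss of all regions of like strength and not a lost share of these genes. In SKOV3 it was 27.3% and 28.6% without replicate 1 or 2. The gained share was 0.0% with a fold or score of at least 5 in OVCAR8 (0 of 13) and in SKOV3 (0 of 18), and 0.0% in SKOV3 against the exchanged lists (0 of 23). It was 17.9% and 12% in OVCAR8 and 18.6% and 15.4% in SKOV3 without replicate 1 or 2. Of the 64 alternative region values, which include the shares expected from strength, 58 stayed within the interval of the reported one. The replicate number as a block, which does not pair the lists, gave 0 calls over the lines, 3787 in OVCAR8 and 3361 in SKOV3. With it KAT6A was no longer called in OVCAR8 (adjusted p 0.055) and BRD3 was called in SKOV3 (0.0341), by limma.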
